A study of Mus musculus with 4 samples.

Results

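Haemoglobin and erythroid genes were examined as a set of 8 listed mouse genes: the adult alpha globins Hba-a1 and Hba-a2, the adult beta globins Hbb-b1, Hbb-b2, Hbb-bt and Hbb-bs, the haem synthesis gene Alas2 and the red cell anion exchanger gene Slc4a1. The set was chosen by gene name. Of the 8 genes, 4 had a probe with a matching RefSeq accession on the array: Hba-a1 with 1 probe, Hbb-bt with 4, Alas2 with 1 and Slc4a1 with 1. These are 4 of the 16543 named genes on the array, and 7 of its 41174 distinct probes. Hba-a2, Hbb-b1, Hbb-b2 and Hbb-bs were matched to no probe, so no value is given for them. Which adult globin genes each probe reads was not checked. The Hba-a1 and Hbb-bt probes may also read transcripts of other adult globin genes, so their values are best read as adult alpha and adult beta globin signal.

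The RNAs came from whole brains of 50-week-old mice of the senescence-accelerated strain SAMP8, which is used as a model of early learning and memory decline, and of SAMR1, the senescence-resistant strain usually set beside it. SAMP8 mice ate either feed with added whale meat extract (WME) or the low-safflower oil control diet (LSO), and SAMR1 received the LSO diet, each for 26 weeks from 24 weeks of age, with behavioural tests over 8 days at 49 weeks. The labels give the genetic background as AKR/J with suspected outbreeding to an unknown line, and mice were decapitated and the brains frozen, with no step named in the labels to clear blood from the vessels. Each of 3 RNAs (SAMP8 on WME, SAMP8 on LSO, SAMR1 on LSO) stands for its group, and the labels state neither how many mice it came from nor whether it was a pool. SAMP8 WME over SAMP8 LSO was hybridised on 2 two-colour arrays with the dyes exchanged, and SAMP8 LSO over SAMR1 LSO on 2 more. Exchanged arrays of the same RNAs count as 1 replicate, so no comparison has a replicate check and no p-value is given. Errors printed beside log2 ratios are SDs between the 2 dye orientations and cover labelling and hybridisation only. Because strain goes with all else that differed between the 2 RNAs, such as the animals and the dissection, these cannot be told apart from strain, and the same holds for diet.

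Haemoglobin carries oxygen in red cells and is built from alpha and beta globin chains, each holding a haem group. Alas2 encodes the erythroid form of the first and rate-limiting enzyme of haem synthesis, and Slc4a1 encodes the chloride-bicarbonate exchanger that also anchors the red cell membrane to its skeleton. Mature red cells lack a nucleus, but reticulocytes, their immediate precursors in blood, still hold much globin mRNA, and globin transcripts have also been described in neurons and glia. In RNA from a whole brain, a difference in these transcripts cannot be told apart between fewer cells that hold them and less RNA per cell.

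The promoters of Hba-a1, Hbb-bt and Alas2 are shown because these 3 are the members with both a probe and an available promoter sequence. No link between promoter letters and ratios was tested. Each promoter shown is the RefSeq sequence of GRCm38.p6, 250 bases before to 50 after the annotated start, written 5′ to 3′ on the gene's strand. It is a reference sequence, and the promoters of the mice used were not read. Capitals mark letters that matched a searched motif on either strand. Hba-a1 lies at chr11:32283422-32283721 on the plus strand, Hbb-bt at chr7:103813874-103814173 on the minus strand and Alas2 at chrX:150547167-150547466 on the plus strand.
Hba-a1: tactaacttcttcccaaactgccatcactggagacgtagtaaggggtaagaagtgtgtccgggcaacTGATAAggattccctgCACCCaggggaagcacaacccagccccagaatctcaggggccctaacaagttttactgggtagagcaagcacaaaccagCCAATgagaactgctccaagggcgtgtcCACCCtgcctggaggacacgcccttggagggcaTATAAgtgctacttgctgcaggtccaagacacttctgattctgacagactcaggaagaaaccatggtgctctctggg
Hbb-bt: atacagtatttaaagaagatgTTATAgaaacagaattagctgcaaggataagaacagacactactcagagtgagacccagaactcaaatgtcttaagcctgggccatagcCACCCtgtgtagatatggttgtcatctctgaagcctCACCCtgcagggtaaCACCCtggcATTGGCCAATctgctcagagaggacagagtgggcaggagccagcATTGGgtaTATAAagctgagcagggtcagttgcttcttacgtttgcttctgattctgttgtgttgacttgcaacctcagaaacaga
Alas2: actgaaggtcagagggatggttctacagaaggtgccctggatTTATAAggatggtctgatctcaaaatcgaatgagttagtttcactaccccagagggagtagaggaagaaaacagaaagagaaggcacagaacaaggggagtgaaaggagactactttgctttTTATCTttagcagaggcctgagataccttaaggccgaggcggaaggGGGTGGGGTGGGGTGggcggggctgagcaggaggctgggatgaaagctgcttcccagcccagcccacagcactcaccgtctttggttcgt

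The motifs searched, on both strands, were a GATA site (the letters GATA with A or T before them and A or G after them), a CACCC box (those 5 letters), a CCAAT box (those 5 letters) and a TATA box (the letters TATAA). GATA sites are bound by Gata1, the main erythroid transcription factor, and CACCC boxes by Klf1, which is needed for adult beta globin expression. Positions are counted from the start, with bases before it negative. The Hba-a1 promoter held 1 GATA site from −183 to −178, 2 CACCC boxes, 1 CCAAT box from −88 to −84 and 1 TATA box from −27 to −23. The Hbb-bt promoter held no GATA site so defined, 3 CACCC boxes, 3 CCAAT boxes of which 2 were on the opposite strand, and 2 TATA boxes, the nearer from −28 to −24. In Alas2 there was 1 GATA site on the opposite strand from −86 to −81, 3 CACCC boxes on the opposite strand between −40 and −26, no CCAAT box, and 2 TATA boxes on opposite strands that overlap each other from −208 to −203. CACCC and TATAA were present in all 3 windows. Of 32851 mouse promoters of this length, 57.5% held CACCC, 37.4% CCAAT, 29.8% a GATA site and 24.9% TATAA, so each motif is common, and a match describes the letters only. The windows of Hba-a1 and Hba-a2 shared an unbroken run of 297 bases, whereas Hbb-bs and Hbb-bt were 74.7% identical over 293 aligned bases. Slc4a1, Hbb-b1 and Hbb-b2 are named here without a promoter.

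All 7 probes were well above background in all 8 readings (2 dyes on 4 arrays), and none was saturated. The globin probes gave raw signals between 24607 and 98800. Their spots were brighter than 97.9% to 99.5% of probes, the Alas2 spot than 74.7% and the Slc4a1 spot than 50.2%. Brightness depends on the probe and is not a measure of transcript number, but it places the globin probes in the range of the intensity scale where few probes lie. Neuronal, astrocyte and oligodendrocyte markers of the labelled tissue were measured in 7 of 7, 6 of 6 and 6 of 6 cases. Kidney tubule genes, which the label does not lead to, were measured too (6 of 7 listed), and the kidney gene Kap read 4388.5 and 3533 in WME RNA, 114.5, 151, 133 and 121 in SAMP8 LSO RNA and 923.5 and 1079 in SAMR1 LSO RNA. The WME RNA thus held far more Kap signal than the other RNAs, and as it is the only RNA of its group, no diet ratio can be given without it. SAMR1 LSO RNA in turn held more Kap signal than SAMP8 LSO RNA, so the RNAs of the strain pair also differed in this signal. All 4 arrays lay on 1 slide, and per array and dye 81.4% to 85.6% of spots exceeded background clearly.

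SAMP8 on the control diet had more signal from adult alpha globin, adult beta globin and Alas2 than SAMR1 on the same diet. The Hba-a1 probe was 1.33-fold higher, the 4 Hbb-bt probes were 1.27- to 1.43-fold higher, and Alas2 was 1.36-fold higher (means of both arrays, each above 0 on both). Slc4a1 was 1.09-fold higher. The median log2 ratio of the 5 globin probes was 0.40 ± 0.01 (SD of the medians over the 2 dye orientations), a 1.32-fold difference. The 2 medians fell on different probes, and 4 of the 5 probes were matched to Hbb-bt. As the SDs of single globin probes ran from 0.02 to 0.20, 0.01 is not the error of a globin ratio.

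For the Hba-a1 probe (chromosome 11), the raw median signal in SAMP8 LSO RNA was 47104 in Cy5 and 35575 in Cy3, against 29225 in Cy3 and 39562.5 in Cy5 for SAMR1 LSO RNA on the same arrays. After normalization its log2 ratio of SAMP8 over SAMR1 was 0.45 with SAMP8 in Cy5 and 0.38 with SAMP8 in Cy3, a mean of 0.41 ± 0.05. On each of these arrays the RNA in Cy5 had the higher raw signal, so the raw values order the RNAs only once the dye effect is removed. Within a dye, SAMP8 LSO was above SAMR1 LSO in both Cy5 and Cy3.

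The beta globin probes on chromosome 7 gave the same order within each dye. The brightest, A_51_P374476, read 94575 in Cy5 and 72894.5 in Cy3 for SAMP8 LSO, against 57194 in Cy3 and 86516.5 in Cy5 for SAMR1 LSO. Its log2 ratios were 0.42 and 0.39, a mean of 0.40 ± 0.02. Probe A_52_P213909 read 47758.5 and 37007.5 for SAMP8 LSO, against 26902.5 and 39609.5 for SAMR1 LSO, in the same dye order. It had the highest ratio of the 4 beta globin probes, with log2 ratios of 0.59 and 0.44 and a mean of 0.51 ± 0.11. Probe A_52_P260346 read 35346 and 28949 for SAMP8 LSO, against 24648 and 31057 for SAMR1 LSO, and its log2 ratios of 0.30 and 0.40 averaged 0.35 ± 0.07. Probe A_51_P374468 read 33599 and 29197.5 for SAMP8 LSO, against 24868 and 29170.5 for SAMR1 LSO, and its log2 ratios of 0.22 and 0.50 averaged 0.36 ± 0.20. The 4 probes thus gave means within 0.35 to 0.51, and the 2 orientations of A_51_P374468 lay farther apart than the means of the 4 probes.

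Alas2, on the X chromosome, read 1728.5 in Cy5 and 1985.5 in Cy3 for SAMP8 LSO, against 1350.5 in Cy3 and 1529.5 in Cy5 for SAMR1 LSO. Its log2 ratios were 0.27 and 0.61, a mean of 0.44 ± 0.24, so its mean lay within the range of the globin probes with a wider error. Slc4a1, on chromosome 11, read 250 and 419 for SAMP8 LSO, against 206.5 and 444 for SAMR1 LSO, and its log2 ratios of 0.17 and 0.08 averaged 0.13 ± 0.06. It was the member with the smallest ratio.

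**Figure D1:**
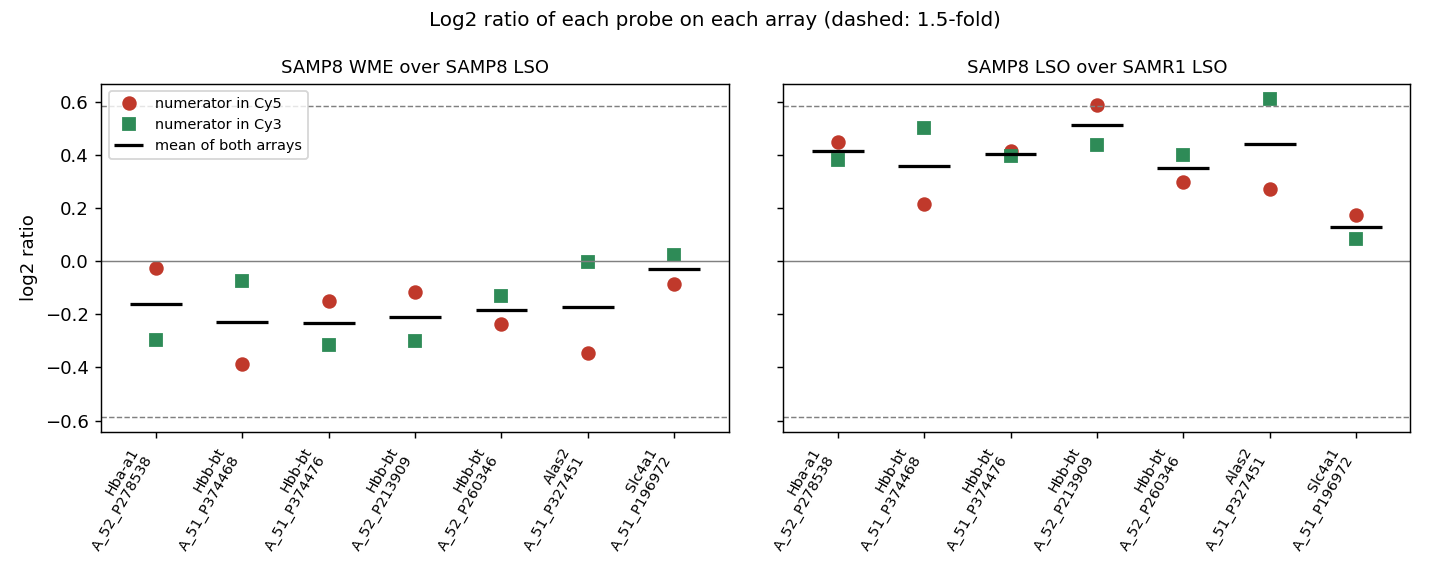
Log2 ratios of the 7 member probes on each array, SAMP8 WME over SAMP8 LSO and SAMP8 LSO over SAMR1 LSO, by dye orientation, with the mean of both. Globin and Alas2 probes lie below 0 for the diet (Alas2 at 0 on one array) and above 0 for the strain; with each array centred on its median in place of loess the diet ratios of the globin probes lie between −0.0087 and 0.066.

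The threshold for a call was a ratio of 1.5-fold or more, the same way on both arrays. Of the members 0 were called in either direction, where 0.969% of 26937 measured features were called higher in SAMP8 LSO and 0.494% lower. At 1.2-fold on both arrays, a size named as an alternative, 3 of 4 genes were higher in SAMP8 LSO. Of all features, each gene counted once, 2.81% were higher and 1.72% lower. Of the 7 probes 5 reached that size, but 4 of the 7 were matched to Hbb-bt and are not separate observations. With processed signals 1 of 4 genes and 3 of 7 probes reached that size, and with each array centred on its median 0 of 4 genes and 0 of 7 probes did. The shares over all features were counted with loess only, so the counts under these other settings cannot be set against 2.81%. With loess, all 4 genes were above 0 on both arrays, against 23.9% of features, and 0 were below 0 on both, against 26.7%. Among all measured probes, the globin ratios stood at the 97.5th to 98.6th percentile, Alas2 at 98.3 and Slc4a1 at 89.2. The technical SD of a mean over both arrays was 0.050 over 33422 measured probes and 0.053 over the brightest 1% of them (334 probes), and the globin and Alas2 means were larger than this error. The ratios of those brightest probes had an SD of 0.087 between the strains. These figures describe how far the 2 RNAs differed, and say nothing of the spread between mice of a strain, which was not measured.

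For the diet the globin and Alas2 ratios lay on the other side of 0 with loess normalization and were smaller. Both comparisons share the SAMP8 LSO RNA, so their opposite signs are not independent. The WME RNA gave less adult globin signal than the LSO RNA: the Hba-a1 probe was 1.12-fold lower and the 4 Hbb-bt probes 1.14- to 1.18-fold lower. Alas2 was 1.13-fold lower and Slc4a1 1.02-fold lower. The median of the 5 globin probes was −0.21 ± 0.10, and all 5 were below 0 on both arrays. This direction rested on the intensity-dependent normalization: with each array centred on its median instead, the globin median was 0.017 and the probes lay between −0.0087 and 0.066, with Alas2 at −0.027.

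Under that centring, however, the brightest 1% of probes as a whole stood at a median of 0.235 for the diet, and the globin median lay 0.218 below them (difference −0.218). The corresponding difference was −0.197 with loess, −0.193 with the scanner program's processed signals and −0.192 with no normexp offset. Most globin probes lie just short in brightness of the brightest 1% of probes. Set against that 1%, the globin signal was lower in WME by a similar amount under these 4 settings. Setting it against bright probes is itself an intensity-dependent correction, so this agreement was largely fixed in advance. It gives no independent support for the diet direction, which still rests on a correction for intensity. In the plot of ratio against brightness the 5 globin probes lie below the 5th percentile of their neighbours for the diet and above the 95th for the strain with loess and with median centring. For SAMP8 LSO over SAMR1 LSO the difference from the brightest probes was 0.405 with loess, 0.399 with processed signals, 0.401 with median centring and 0.406 with no offset.

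**Figure D2:**
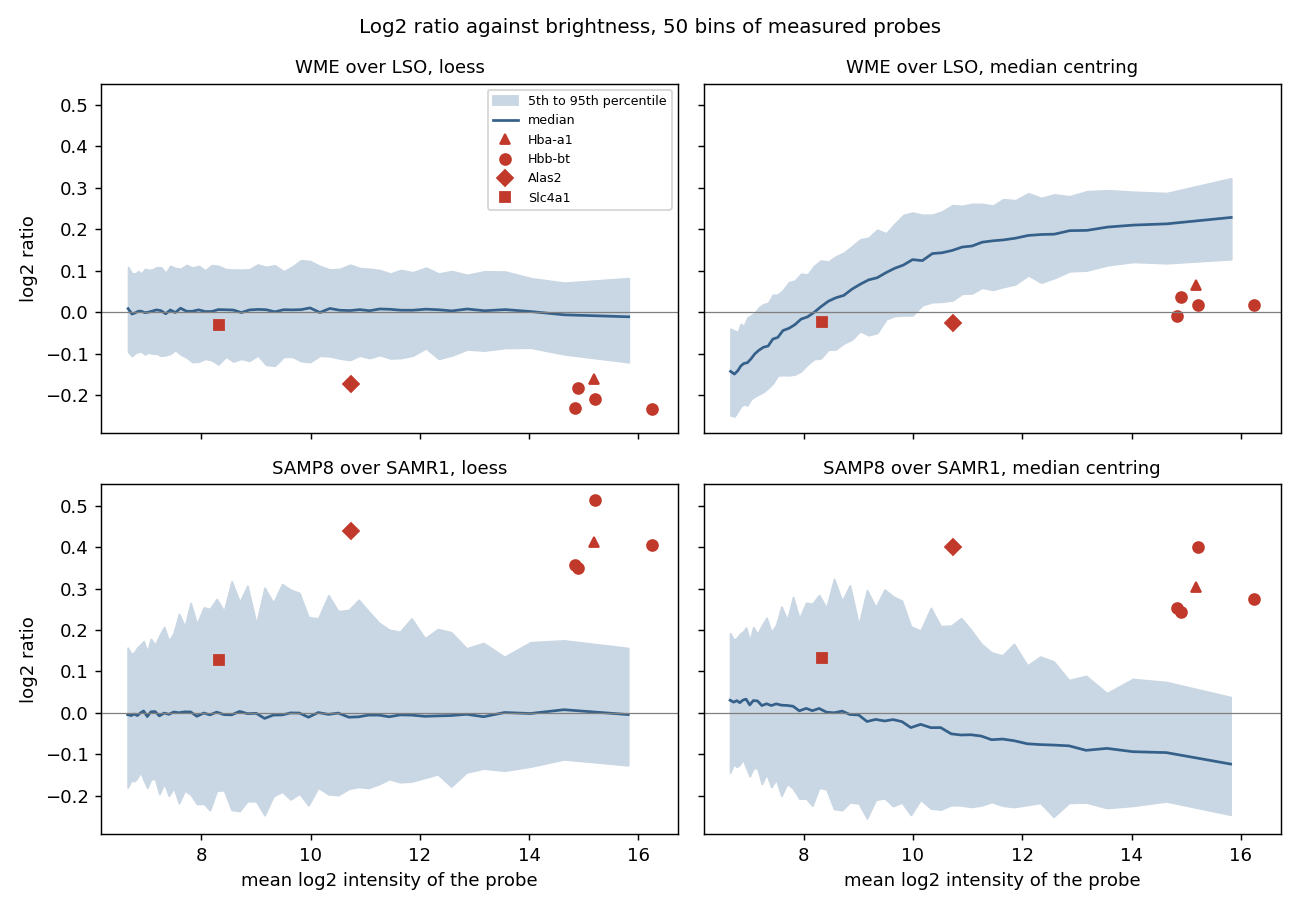
Log2 ratio against brightness (mean log2 signal of both channels) for measured probes in 50 bins, as medians with the 5th to 95th percentile band, under loess (left) and median centring (right), with the member probes marked. Under median centring the bright end of the diet arrays lies above 0 and the globin probes lie near 0, and with loess the globin probes lie at a median of −0.21; the globin probes lie below the band for the diet and above it for the strain in both settings.

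Raw signals of the Hba-a1 probe for the diet pair were 45814 in Cy5 and 28956 in Cy3 in WME RNA, against 32086 in Cy3 and 45285.5 in Cy5 in LSO RNA. Its normalized log2 ratios of WME over LSO were −0.03 and −0.30, a mean of −0.16 ± 0.19. The SD between dye orientations was larger than the ratio, but it includes the dye bias that the mean cancels. Against the technical SD of a mean, 0.050 over all measured probes, the mean of this probe was larger. The spread between mice was not measured. Among beta globin probes, A_51_P374476 read 98800 and 58490 in WME, against 70221 and 96629.5 in LSO, and had log2 ratios of −0.15 and −0.32, a mean of −0.23 ± 0.12. A_52_P213909 read 45674.5 and 30461 in WME, against 33979.5 and 48004 in LSO, with log2 ratios of −0.12 and −0.30 and a mean of −0.21 ± 0.13. A_52_P260346 read 35433 and 26329 in WME, against 29112 and 36482.5 in LSO, with the tightest ratios of −0.24 and −0.13, a mean of −0.18 ± 0.07. A_51_P374468 read 31631.5 and 24607 in WME, against 29018.5 and 32548 in LSO, with log2 ratios of −0.39 and −0.07 and a mean of −0.23 ± 0.22. The beta probes agreed in their means within −0.23 to −0.18, and 2 of the 5 globin probes had an SD as large as or close to their mean.

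Alas2 read 1771 and 1547 in WME RNA, against 1867 and 1766.5 in LSO RNA, with log2 ratios of −0.34 and −0.0035 and a mean of −0.17 ± 0.24. Slc4a1 read 294.5 and 266.5 in WME, against 276.5 and 283 in LSO, with log2 ratios of −0.08 and 0.02 and a mean of −0.03 ± 0.08. In both, the SD between dye orientations was larger than the ratio, but it includes the dye bias that the mean cancels. Against the technical SD of a mean, 0.050 over all measured probes, the Alas2 mean was larger and the Slc4a1 mean smaller. No member was called for the diet at 1.5-fold, where 0.03% of 26663 features were called lower and 0.0563% higher, and none was at least 1.2-fold lower on both arrays, where 0.109% of features were (0.173% were that much higher). With loess, 3 of the 4 genes were below 0 on both arrays, against 17.6% of features, and 0 were above 0 on both, against 20.5%. With loess too, the globin ratios stood between the 0.310th and the 1.29th percentile of all measured probes, Alas2 at 0.941 and Slc4a1 at 28.1. With median centring, 0 of 4 genes and 0 of 7 probes were below 0 on both arrays, counts with no share beside them. The globin ratios then stood at the 35.6th to 50.6th percentile, and with processed signals at the 3.90th to 7.29th.

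The dye part of a probe's values, which the mean over both orientations cancels, was itself similar in both pairs for some probes. It was −0.16 in the diet pair and −0.14 in the strain pair for A_51_P374468, −0.17 and −0.17 for Alas2, and −0.05 and −0.05 for A_52_P260346. Over the brightest 1% of probes the SD of this dye part was 0.299 in the diet pair and 0.294 in the strain pair, larger than any diet ratio of a member probe, so a single array would not separate the diet ratios from the dye.

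The 3 RNAs were placed on one scale by levels normalized per channel and across arrays (log2). The Hba-a1 probe stood at 15.17 and 15.06 in WME RNA, at 15.20, 15.35, 15.40 and 15.37 in the 4 readings of SAMP8 LSO RNA, and at 14.96 and 14.99 in SAMR1 LSO RNA. The WME readings lay below all LSO readings and above both SAMR1 readings. The brightest beta probe, A_51_P374476, stood at 16.23 and 16.08 in WME, at 16.38, 16.40, 16.37 and 16.49 in SAMP8 LSO, and at 15.96 and 16.10 in SAMR1, where the ranges of WME and SAMR1 overlapped. A_52_P213909 averaged 15.14 ± 0.04 in WME, 15.39 ± 0.07 in SAMP8 LSO and 14.91 ± 0.11 in SAMR1, with no overlap of readings between any of the 3. A_52_P260346 averaged 14.86 ± 0.07, 15.03 ± 0.02 and 14.68 ± 0.04 in the same order of RNAs, also without overlap. A_51_P374468 averaged 14.74 ± 0.12 in WME, 14.98 ± 0.08 in SAMP8 LSO and 14.64 ± 0.12 in SAMR1, with WME and SAMR1 overlapping.

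Alas2 averaged 10.70 ± 0.11 in WME, 10.89 ± 0.13 in SAMP8 LSO and 10.46 ± 0.05 in SAMR1, and its WME and SAMP8 LSO readings overlapped. Slc4a1 averaged 8.27 ± 0.06 in WME, 8.37 ± 0.28 in SAMP8 LSO and 8.32 ± 0.53 in SAMR1, and its ranges overlapped in every pair of RNAs. The order SAMP8 LSO, then SAMP8 WME, then SAMR1 LSO from high to low held for 6 of 7 probes, with Slc4a1 the exception. Of the 7 probes 4 were matched to Hbb-bt, so they are not separate observations. Readings overlapped between WME and SAMP8 LSO in 2 of 7 probes, between SAMP8 LSO and SAMR1 in 1, and between WME and SAMR1 in 3. Among 33422 measured probes, readings did not overlap in 12.2% for WME and SAMP8 LSO, in 23.9% for SAMP8 LSO and SAMR1 and in 39.4% for WME and SAMR1, and 16.7% had the order SAMP8 LSO, WME, SAMR1. The order of WME against SAMP8 LSO has the same dependence on normalization as the diet ratio.

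**Figure D3:**
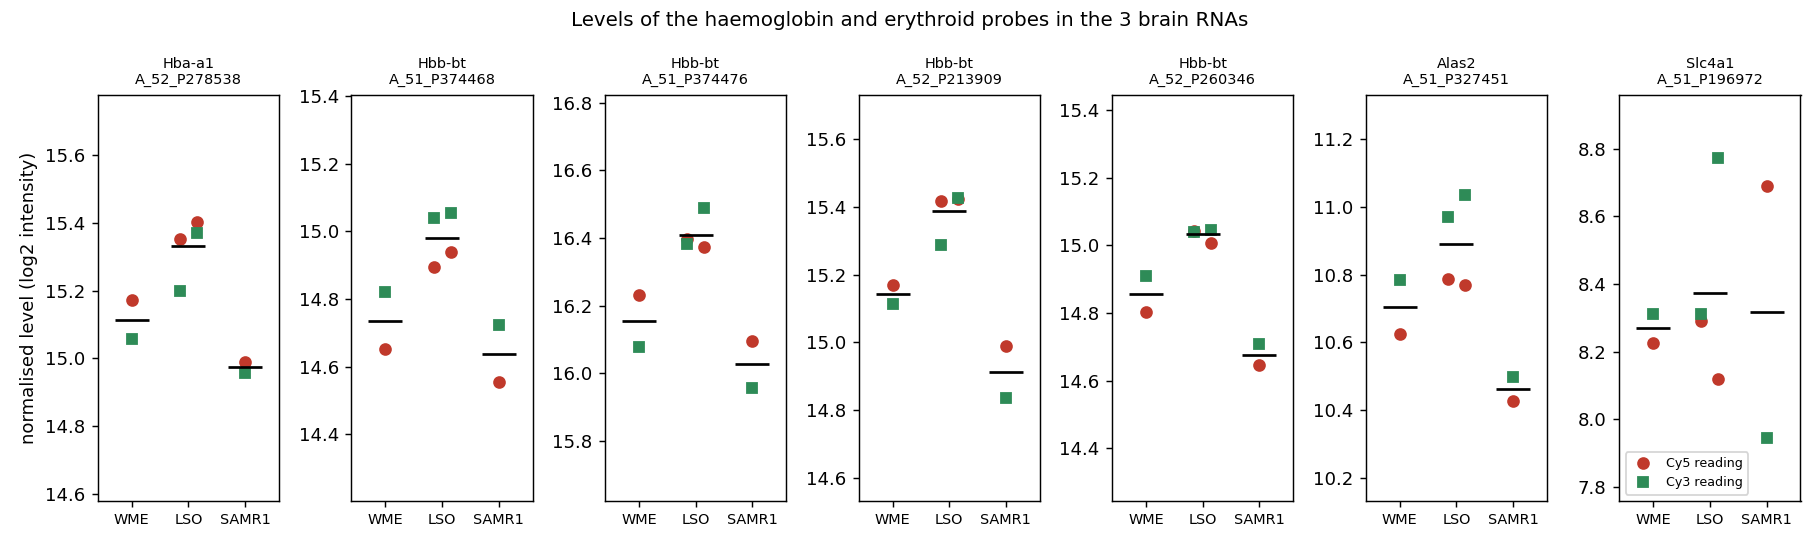
Normalized level (log2 signal) of each member probe in the 2 readings of SAMP8 WME, the 4 of SAMP8 LSO and the 2 of SAMR1 LSO, with the mean. SAMP8 LSO is highest in the globin probes and Alas2, at 15.33 in the mean for Hba-a1 against 14.97 in SAMR1 LSO; levels follow loess normalization, and with median centring the diet ratios of the globin probes are near 0.

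No array carried WME and SAMR1 RNA together. Adding the ratios of both pairs gives an indirect ratio of SAMP8 WME over SAMR1 LSO, on the assumption that the SAMP8 LSO RNA was the same in both pairs, and both ratios share that RNA. The sum was 0.25 ± 0.24 for Hba-a1, 0.13 to 0.30 over the 4 Hbb-bt probes, 0.27 ± 0.48 for Alas2 and 0.10 ± 0.01 for Slc4a1. The globin median was 0.17 ± 0.09, a 1.13-fold difference. Of the 5 globin probes 4 were above 0 in both orientations, but 4 of the 5 were matched to Hbb-bt and are not separate observations. Of the 4 genes, 3 were above 0 in both, against 19% of features, and 0 below, against 18%. None reached 1.5-fold, which 0.811% of features did upwards and 0.398% downwards, or 1.2-fold, which 2.37% did upwards and 1.29% downwards. With median centring the globin median of the sum was 0.29, but 1 of 4 genes and 3 of 7 probes were above 0 in both orientations.

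Other genes of red cell biology were read from 9 lists with 91 genes, of which 84 had a probe and 76 (diet) or 75 (strain) were measured. None of them was called for the diet. For the strain 1 was called higher and 1 lower, both haem synthesis enzymes. The list medians ran from −0.041 to 0.051 for the diet and from −0.030 to 0.11 for the strain, beside medians over all features of 0.0037 and −0.0067. With median centring they ran from 0.012 to 0.16 and from −0.11 to 0.11, beside 0.066 and −0.026 over all features.

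Of the 10 haem synthesis genes, all measured, the list median was −0.036 for the diet and −0.029 for the strain. Ppox, the enzyme that oxidises protoporphyrinogen, was higher in SAMP8 LSO than in SAMR1 LSO, with log2 ratios of 1.07 and 1.11 and a mean of 1.09 ± 0.03 from its single probe. Fech, which inserts iron into protoporphyrin, was lower on its brightest probe at −0.70 ± 0.01, while its other probe stood at 0.09, so the Fech probes disagreed. The remaining 8 were called in neither direction.

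The embryonic and minor globins had 5 of 8 genes with a probe and 4 measured, with medians of 0.051 for the diet and −0.023 for the strain. Hbq1b and Hbq1a, theta globin genes of the alpha cluster, stood at 0.11 ± 0.05 and 0.08 ± 0.12 for the diet and at −0.04 ± 0.05 and −0.06 ± 0.07 for the strain. Hbb-y and Hbb-bh1, embryonic beta-like globins, stood at −0.0027 ± 0.11 and 0.07 ± 0.07 for the strain. The largest of these strain ratios was smaller than that of any adult globin probe, a difference that was not tested. These probes were far dimmer than the adult globin probes, which read 24607 or more. Raw signals were 79 to 95 for Hbb-bh1, 143 to 173 for Hbq1b, 167 to 271 for Hbb-y and 263 to 352 for Hbq1a. Hba-x, which was not measured, read 69.5 to 98.5. The ratios of such dim probes cannot show that embryonic and adult globins differed. Of the 3 globins with a role in tissue, neuroglobin (Ngb) stood at 0.03 ± 0.07, cytoglobin (Cygb) at −0.05 ± 0.21 and myoglobin (Mb) at 0.05 ± 0.17 for the strain. Each ratio was smaller than its SD between dye orientations.

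Of 16 red cell membrane and skeleton genes, 11 were measured and none was called, with medians of 0.0014 for the diet and 0.0057 for the strain. Gypc, which encodes glycophorin C, stood at −0.16 ± 0.01 for the diet and 0.50 ± 0.01 for the strain. Aqp1, a water channel of red cells that the choroid plexus also expresses, stood at 0.16 ± 0.26 for the diet and −0.55 ± 0.30 for the strain. The 8 erythroid transcription factors were all measured, with medians of −0.0022 and 0.028 for the diet and the strain. Among them Nfe2 stood at 0.21 ± 0.10 and Tal1 at 0.20 ± 0.02 for the strain, and Gata1 and Klf1 at 0.0088 ± 0.06 and 0.0021 ± 0.12. Raw signals over all readings were low for Nfe2 (76 to 105), Klf1 (107 to 135) and Gata1 (149.4 to 184.8). Tal1 read 516.5 to 697.5. Nfe2 was not well above background in SAMR1 LSO RNA. At such low signals, ratios near 0 do not show that Gata1 and Klf1 were unchanged.

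Of 15 other red cell and reticulocyte genes 11 were measured and none was called. Epor, the erythropoietin receptor, had log2 ratios of −0.72 and −0.51 for the strain, a mean of −0.61 ± 0.15, short of 1.5-fold on 1 array. Car2, a carbonic anhydrase, stood at −0.32 ± 0.20. These 2 had the largest strain ratios of the list, and both ran opposite to the globins. Which cells of the brain their transcripts came from was not tested.

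No gene of haemoglobin and haem clearance, iron handling or oxygen sensing was called. Haptoglobin (Hp), which binds free haemoglobin, stood at 0.23 ± 0.19 for the strain, and its scavenger receptor Cd163 at 0.13 ± 0.13. Ceruloplasmin (Cp), a ferroxidase, stood at −0.14 ± 0.17 for the diet and 0.46 ± 0.07 for the strain. Trf, another iron handling gene, stood at −0.0051 ± 0.35 for the diet and 0.19 ± 0.24 for the strain. Adrenomedullin (Adm), a peptide induced by low oxygen, stood at −0.17 ± 0.10 for the diet and 0.51 ± 0.10 for the strain. Vegfa stood at −0.11 ± 0.08 for the diet and 0.28 ± 0.05 for the strain. The oxygen sensing list had a strain median of 0.11, with 6 of 10 measured genes above 0 on both arrays, and a diet median of 0.022.

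Few genes near the globin clusters were measured, and none was called. Of the 10 nearest genes on each side of the beta globin cluster, 12 of 20 had a probe, all of them olfactory receptor genes. In the strain pair 4 were measured, with a median of 0.020. Around the alpha globin cluster 10 of 20 had a probe and 9 were measured. Their strain median was 0.077, beside −0.0067 over all features, and their diet median 0.014. As 0.969% of features were called higher and 0.494% lower for the strain, the lack of a call among so few genes says little.

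The 8 genes whose values on the 4 arrays lay nearest the median profile of the globin probes, among 14595 ranked genes and by Euclidean distance of the log2 ratios, were Car3, Cnn2, Clec14a, Omd, Msln, Foxd1, Gypc and Rasl12. The profile was −0.15 and −0.30 for the diet and 0.42 and 0.40 for the strain. Car3, a carbonic anhydrase of muscle and fat, was the nearest at a distance of 0.13, with log2 ratios of −0.19 for the diet and 0.36 for the strain. The others lay at distances of 0.15 to 0.18. Gypc was the only one of the 8 on a red cell list.

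The marker lists of neutrophils, monocytes, endothelial and mural cells and meningeal fibroblasts had medians of the same sign as the globins with loess. Among these 4 the diet sign of the endothelial and mural list turned with median centring. The platelet, astrocyte, oligodendrocyte and B cell lists had the same signs with loess too. Their diet medians were −0.015, −0.10, −0.038 and −0.0024, and their strain medians 0.092, 0.066, 0.00098 and 0.010. The 11 neutrophil genes had 9 measured. In SAMP8 LSO over SAMR1 LSO all 9 were above 0 on both arrays, with a median of 0.43, and S100a9 and S100a8, calcium-binding proteins abundant in neutrophils, were called at 1.31 ± 0.06 and 1.11 ± 0.02. For WME over SAMP8 LSO, 8 of 9 were below 0 on both arrays, with a median of −0.32, and S100a9 and S100a8 were called lower at −1.09 ± 0.06 and −0.80 ± 0.12. With median centring the medians were −0.44 for the diet and 0.46 for the strain, and with processed signals, which add no offset, −1.21 and 1.29. The summed signal of the measured neutrophil genes was 1878 to 1980 in WME, 2912 to 3002 in SAMP8 LSO and 1701 to 1768 in SAMR1. The summed signal of the 4 measured members was 105366 to 115783 in WME, 125282 to 136878 in SAMP8 LSO and 97053 to 104372 in SAMR1, the same order.

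The 4 measured monocyte genes had medians of −0.15 for the diet and 0.59 for the strain, with Plac8 called higher in SAMP8 LSO at 0.99 ± 0.11, where processed signals gave 2.12. The list medians were −0.23 and 0.60 with median centring and −0.29 and 0.84 with processed signals. Their sum was 1126 to 1188 in WME, 1255 to 1279 in SAMP8 LSO and 815 to 864 in SAMR1. Endothelial and mural cell genes, all 12 measured, had medians of −0.07 and 0.37, with 10 of 12 above 0 on both strain arrays and Kcnj8, Pdgfrb and Rgs5, genes of pericytes and smooth muscle, called higher at 0.96 ± 0.02, 0.86 ± 0.21 and 0.83 ± 0.17. Abcc9, another mural cell gene of the list, stood at −0.14 ± 0.01, with its other probes at −0.43 to −0.40. With median centring the list's diet median turned to 0.052 and its strain median was 0.32. Their sum was 22021 to 23119 in WME, 23693 to 26877 in SAMP8 LSO and 18306 to 19248 in SAMR1. Meningeal fibroblast genes, all 8 measured, had medians of −0.19 and 0.54, with all 8 above 0 on both strain arrays. Col3a1, Col1a1, Col1a2 and Ogn, matrix genes, were called higher in SAMP8 LSO at 0.96 ± 0.02, 0.86 ± 0.01, 0.70 ± 0.06 and 0.64 ± 0.05. The second Col3a1 probe stood at −0.01 and the other Col1a1 probes at 0.17 to 0.48, and Ogn fell short of the call under median centring. With median centring the list medians were −0.020 and 0.49. Their sum was 32566 to 33963 in WME, 35121 to 36164 in SAMP8 LSO and 26253 to 27074 in SAMR1. The part these cells had in the globin ratios was not tested.

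Platelet and megakaryocyte genes, 8 of 10 measured, had medians of −0.015 for the diet and 0.092 for the strain. Gp9 was called lower in SAMP8 LSO at −0.88 ± 0.05, whereas Treml1, Pf4 and Ppbp stood at 0.42 ± 0.05, 0.41 ± 0.29 and 0.37 ± 0.06. B cell genes had medians of −0.0024 and 0.010, and T and NK cell genes 0.0058 and 0.046. The strain medians of these 3 lists were below those of the neutrophil and monocyte lists, a difference that was not tested. Choroid plexus genes had medians of 0.058 for the diet and −0.17 for the strain, neurons −0.028 and −0.023, astrocytes −0.10 and 0.066, oligodendrocytes −0.038 and 0.00098, and microglia 0.096 and −0.053. With median centring the diet medians of neurons, astrocytes and oligodendrocytes turned to 0.22, 0.10 and 0.18, the strain medians of astrocytes and oligodendrocytes turned to −0.015 and −0.099, and the diet median of T and NK cells turned to −0.065. Kidney tubule genes had medians of 1.28 for the diet and −0.58 for the strain, and of 2.53 and −1.12 with processed signals. Of the 6 measured, 4 were called higher in WME than in SAMP8 LSO, with Kap, an androgen-regulated kidney protein, at 4.44 ± 0.92, Cyp4b1 at 1.71 ± 0.53, Fbp1 at 1.35 ± 0.45 and Slc34a1 at 1.21 ± 0.59. Their part in the globin ratios was not tested.

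**Figure D4:**
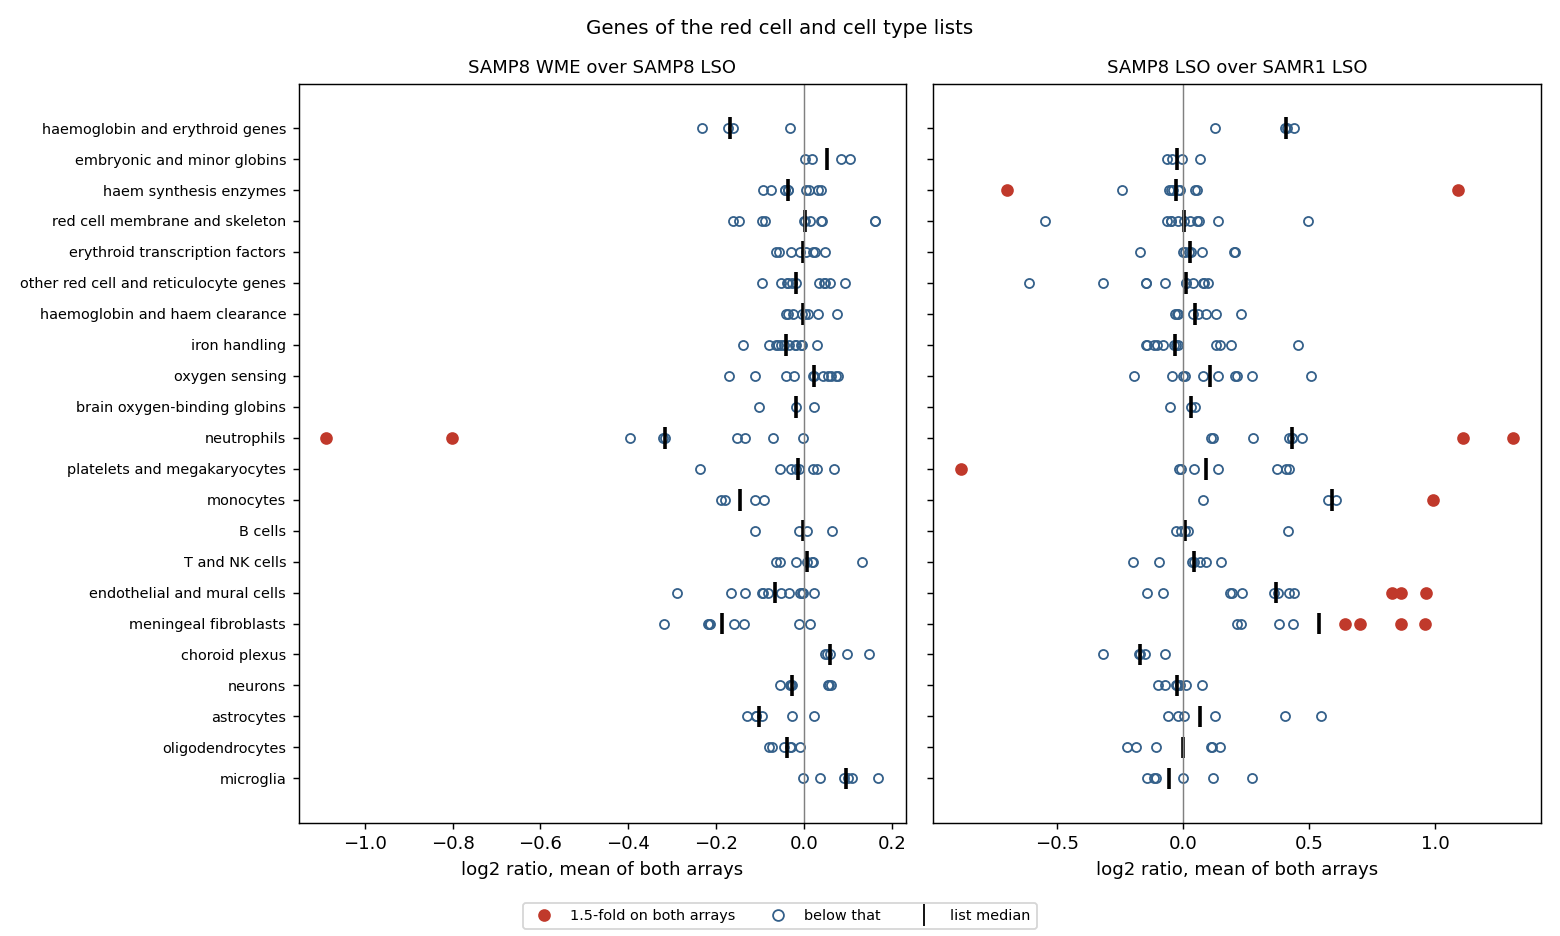
Mean log2 ratio of each measured gene in the red cell and cell type lists, by comparison, with list medians as bars and genes called at 1.5-fold on both arrays filled. The members, neutrophils, monocytes, endothelial and mural cells and meningeal fibroblasts have medians of 0.37 to 0.59 for SAMP8 LSO over SAMR1 LSO; the diet panel follows loess normalization, the globin probes lie near 0 there under median centring, and the kidney tubule list is not drawn because its values run to 4.44.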

How the data were processed

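Total RNA from whole brain was measured on 4 two-colour Agilent arrays. The authors deposited scanner files with spot intensities from the program Agilent Feature Extraction, version 11.0.1.1 (per the file headers): the median and local background intensities are raw, while background subtraction and dye normalization had been applied to the processed ones. The deposited series table holds log2 ratios, equal to log2 of red over green processed signal (largest difference 5e-09), with column medians of −0.018, 0.012, 0.0036 and 0.017, so no sign was turned for exchanged dyes and no centring was added. Flags and probe annotation, which have other units, were used as deposited, per the file headers.

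From these files, median intensities were corrected with normexp (offset 50) and normalized by loess within each array (limma 3.58.1 in R 4.3.3), giving control spots a weight of 0. Outlier spots (105 to 123 per array) were left out, spots of a probe averaged, ratios turned to numerator over denominator and both arrays averaged. Levels were log2 signals per channel after Aquantile. Summed levels include the offset. Probes were named through RefSeq accessions (GRCm38.p6 gene table, used only for names and gene order, as its build is not that of the files), which named 23384 of 41174. A gene was represented by its brightest probe and was measured when well above background in at least 1 RNA on both arrays. Median signals ran from 275 to 321 in green and 306 to 357 in red, and the number of arrays limits the precision.

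In each list the rule named up to 4 called genes, otherwise the 2 with the largest ratios, and cell lists with no call are given by their medians. Gata1, Klf1, Hbb-y, Hbb-bh1, Ngb, Abcc9, Treml1, Pf4 and Ppbp were picked afterwards, with values in view. The members and lists were chosen with earlier results of these data known. On simulated arrays, of 50 probes changed per size, 50 and 50 (diet and strain) were called at 2-fold, 3 and 3 at 1.5-fold and 0 and 0 at 1.2-fold, where the median estimated log2 ratios were 0.239 and 0.257 for a true 0.26. Alternatives were processed signals, median centring, an offset of 0, other filters on dim probes, outlier spots kept, calls at 1.2- and 2-fold and each array left out.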

Additional observations from a re-analysis of the deposited data

How the results depend on the processing

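With each array centred on its median in place of loess, the adult globin median was 0.017 for SAMP8 WME over SAMP8 LSO, 0.27 for SAMP8 LSO over SAMR1 LSO and 0.29 for their sum; the first thus ended near 0 and the strain difference kept its direction, with 6 of 7 probes above 0 on both arrays. At a call size of 1.2-fold, 5 member probes were called for the strain; at that size 3 of 7 were called with processed signals and 0 of 7 with median centring. For the diet, 0 of 7 probes were below 0 on both arrays with median centring. Shares over all features were counted with loess only, so the probe counts given here for processed signals and median centring have no share beside them. Leaving out 1 array in turn gave 1 to 1 called probes for the strain (A_52_P213909 or Alas2, against 0 with both arrays), 0 to 0 for the diet, and globin medians of −0.30 to −0.15 for the diet, 0.40 to 0.42 for the strain and 0.18 to 0.26 for the sum; a single array keeps its dye bias. The other filters on dim probes and the outlier spots left every member value as it was, so they bear on no sign. No paired analysis was possible because the labels give no replicate numbers and each comparison has 1 pair of RNAs. With 1 RNA per group, no setting measures the spread between mice, and the 1.5-fold call misses differences of the size seen here.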
